A study of Mus musculus with 12 samples.

Results

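The nuclear genes of the respiratory chain and the ATP synthase were represented by 114 probe sets of 89 genes among 23410 probe sets tested in EL-4 cells, which are a T lymphoma line of the mouse. A probe set was included when it was paired with exactly 1 gene symbol and that symbol began with Nduf, Uqcr, Cox4 to Cox8 or Atp5, or was Sdha, Sdhb, Sdhc or Sdhd. Complex I subunits had 41 probe sets (36 genes), the Ndufaf assembly factors of complex I had 7, complex II had 4, complex III had 11 (8 genes), complex IV had 21 (17 genes) and the ATP synthase had 30 (17 genes). Ndufa4 is counted by its symbol with complex I, although its protein is now regarded as a subunit of complex IV. Another 6 probe sets that matched by symbol but carried several symbols (for Cox7c, Ndufb4 and Ndufs5) were left out, and the subunits encoded by mitochondrial DNA were not analysed here.

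The study set out to find genes that T cells induce on stimulation and to sort them by their need for new protein. For this, EL-4 cells spent 30 min with cycloheximide (CHX, an inhibitor of protein synthesis) at 10 μg/ml in DMSO, or with DMSO alone. Stimulation was then given for 4 h with PMA (a phorbol ester) at 10 ng/ml, an activator of protein kinase C, with the calcium ionophore ionomycin at 1 μM (together P/I), or the cells were left unstimulated. This gave 4 groups of 3 arrays: CHX with P/I, DMSO with P/I, CHX unstimulated and DMSO unstimulated. All 12 arrays are of 1 transformed line, and the labels call the replicates biological without saying whether they were separate cultures, so p-values measure the spread between these samples. How long the CHX-treated unstimulated cells stayed in CHX after the pretreatment is not given in the sources used here, so within CHX-treated cells P/I and a longer exposure to CHX cannot be told apart.

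The respiratory chain passes electrons from NADH (complex I) and succinate (complex II) through coenzyme Q to complex III, cytochrome c and complex IV, where oxygen is reduced. Complexes I, III and IV pump protons across the inner mitochondrial membrane, and the ATP synthase makes ATP as the protons return. Most subunits are encoded in the nucleus and imported, a few core subunits are made inside the mitochondrion, and the complexes are put together with the help of dedicated assembly factors. Resting and activated T cells both respire, and activated T cells add strong aerobic glycolysis.

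All values are log2 robust multichip average (RMA) values, on which a difference of 1 is a 2-fold change. They follow mRNA in bulk samples, in which less RNA per cell cannot be told apart from fewer cells that carry it. The members were well measured in EL-4 cells. The median over the 114 probe sets was log2 9.25, against 5.885 over all probe sets tested, and 100 (87.7%) averaged log2 7 or more over the 12 arrays, against 37.1% of all tested. All 30 ATP synthase probe sets (log2 8.56 to 12.40), all 11 of complex III (7.27 to 10.97) and all 4 of complex II (9.02 to 10.85) were above that line, as were 36 of 41 of complex I, 15 of 21 of complex IV and 4 of 7 of the assembly factors. As for the identity of the cells, 9 of 10 T cell markers were measured and all 9 were at log2 7.67 or more in every array, whereas the 5 myeloid markers measured stayed between 4.18 and 5.28. The erythroid marker Alas2 lay between 4.87 and 5.16, and 3 of 4 B cell markers and 3 of 4 fibroblast markers stayed below log2 7 in every array. Within a group, arrays correlated at 0.987 to 0.997. Array replicate 1 of each group stood somewhat apart for these genes. Its median over the ATP synthase probe sets was 10.41 in CHX-treated P/I-stimulated cells, 10.63 in DMSO-treated P/I-stimulated cells, 10.68 in CHX-treated unstimulated cells and 10.58 in DMSO-treated unstimulated cells, and the other 8 arrays lay between 10.05 and 10.28. Complex IV was different, with replicate 1 the lowest array of all 4 groups. Its median is the value of the middle one of 21 probe sets, which was one of Cox7a2l in 9 of the 12 arrays.

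**Figure D1:**
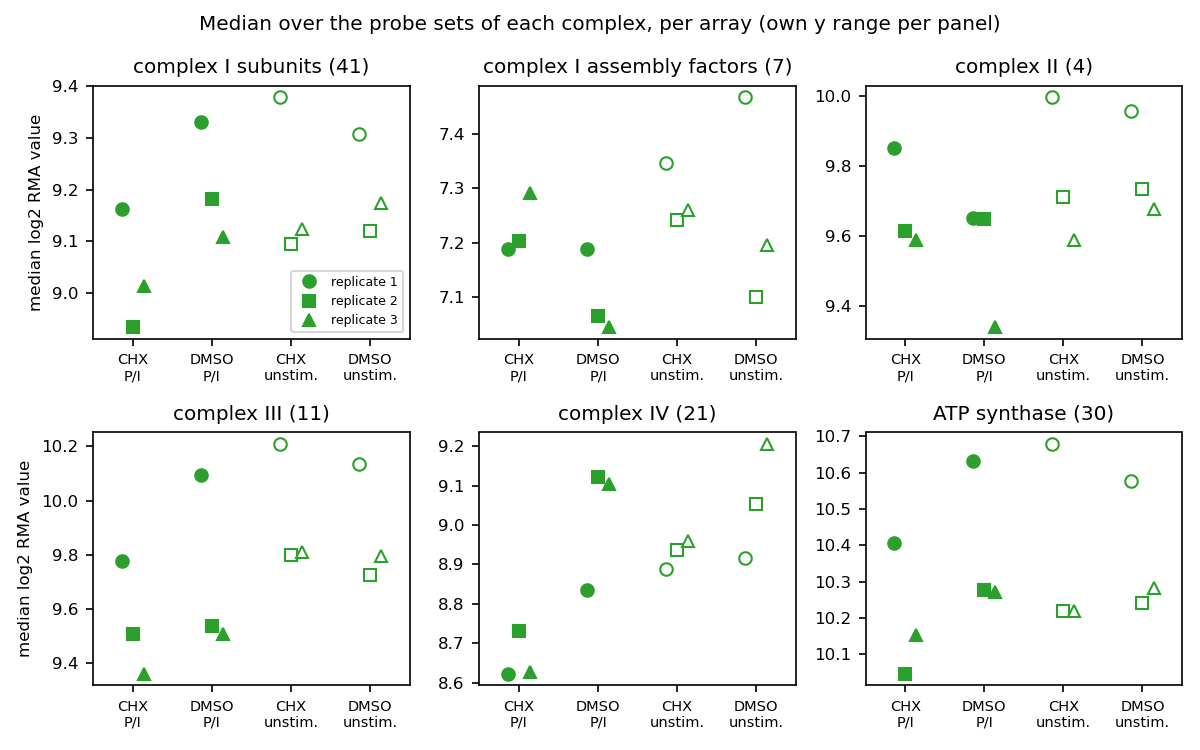
Median log2 RMA value over the probe sets of each complex (number of probe sets in the panel title) in each of the 12 arrays, with filled symbols for P/I-stimulated and open symbols for unstimulated cells, and circles, squares and triangles for replicates 1, 2 and 3. Replicate 1 is the highest array of every group for the ATP synthase (10.41 to 10.68 against 10.05 to 10.28 in the others), and for complex IV the 3 arrays of CHX-treated P/I-stimulated cells (8.62 to 8.73) lie below the 9 others.

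P/I stimulation for 4 h in DMSO-treated cells changed few of these mRNAs. Of the 114 probe sets, 1 passed as higher and 6 as lower at an adjusted p under 0.1 (limma, Benjamini-Hochberg over all 23410), while 9.05% of all tested probe sets were higher and 8.42% lower, and 16.9% and 15% of those at log2 7 or more. The split was 2 higher and 3 lower once arrays were centred on their medians, and 0 higher and 15 lower after quantile normalization of the tested probe sets. Of all 23410 probe sets, 2162 were higher and 1453 lower after centring, and 2142 and 2435 after quantile normalization. Without DMSO P/I replicate 3, or without DMSO unstimulated replicate 1, 3 members were lower, and 2 were higher without replicate 1 of either group. Without DMSO P/I replicate 1, 2012 of all 23410 were higher, against 2118 with all 12 arrays. Without all 4 arrays of replicate 1, 4 members were higher and 13 lower, and without all those of replicate 2 or of replicate 3 there were 0 of either. Over all tested, 12% were higher and 12.6% lower without replicate 1. The shares were 5.34% and 3.75% without replicate 2, and 4.28% and 2.76% without replicate 3. With the replicate number as a block, 6 members (5.26%) were higher and 16 (14%) lower, against 13% and 12.9% of all tested. The median log2 fold change was -0.04 for the members (0.01 after median centring) and -0.03 for all tested. The estimates were narrow, with a median SE of 0.128, and the 95% confidence interval of the change lay within 2-fold in both directions for 112 of 114 probe sets and within 1.41-fold for 76. For all but 2 probe sets, a change of 2-fold or more lay outside the interval. The arrays of the 2 groups did not overlap for 15 of the 114 members and for 24.9% of all tested.

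Uqcrq, a small subunit of complex III, was the 1 member that rose with P/I. Its values were 8.70, 8.92 and 8.89 in P/I-stimulated cells, against 8.47, 8.47 and 8.52 in unstimulated cells, and the groups did not overlap. The log2 fold change was 0.35 (SE 0.08, adjusted p = 0.00902 from limma), a 1.28-fold increase. After quantile normalization of the tested probe sets it was 0.28 and no longer called (adjusted p = 0.137).

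Ndufv3, an accessory subunit of the NADH-oxidizing module of complex I, showed the largest decrease among the members with P/I. It was measured at 8.49, 8.82 and 8.85 in P/I-stimulated cells and at 9.17, 9.68 and 9.83 in unstimulated cells. Every stimulated array was below every unstimulated one, although replicate 1 was the lowest in both groups. The log2 fold change was -0.84 (SE 0.21, adjusted p = 0.0162, limma), which is 1.79-fold lower. Ndufa3, a small accessory subunit of the membrane part of complex I, also fell. It had 9.34, 9.35 and 9.20 in P/I-stimulated cells and 9.58, 9.74 and 9.67 in unstimulated cells, with no overlap (log2 fold change -0.37, SE 0.09, adjusted p = 0.0134, limma). Both calls held when any 1 of the 12 arrays was left out, as did that of Uqcrq.

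All 4 subunits of complex II, the succinate dehydrogenase that also serves the TCA cycle, had negative estimates with P/I, and 1 passed the test. Sdha, the flavoprotein that oxidizes succinate, had values of 10.81, 10.53 and 10.35 in P/I-stimulated cells and of 11.11, 10.95 and 10.88 in unstimulated cells. The groups were separate, and the log2 fold change was -0.42 (SE 0.12, adjusted p = 0.0393, limma). The call was lost without DMSO P/I replicate 3 (log2 fold change -0.31, adjusted p = 0.163) or DMSO unstimulated replicate 1 (adjusted p = 0.124), and after median centring of the arrays (-0.37, adjusted p = 0.154). The membrane anchors were not called: the estimate was -0.38 (SE 0.19) for Sdhd and -0.11 (SE 0.09) for Sdhc, and for the iron-sulfur subunit Sdhb it was -0.15 (SE 0.13).

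Of the 17 genes of the ATP synthase, 3 had a probe set that fell with P/I. Atp5c1 encodes the central stalk subunit gamma, which turns inside the catalytic head. It had 12.32, 11.90 and 12.04 in P/I-stimulated cells and 12.60, 12.36 and 12.42 in unstimulated cells (log2 fold change -0.37, SE 0.12, adjusted p = 0.0523, limma). The groups did not overlap, but the call was lost without DMSO P/I replicate 2 (adjusted p = 0.167) or 3 (0.155), without DMSO unstimulated replicate 1 (0.159) or 3 (0.103), and after median centring (0.195). Atp5h, subunit d of the peripheral stalk, lay at the threshold, with 11.21, 10.95 and 10.98 in P/I-stimulated cells and 11.37, 11.26 and 11.38 in unstimulated cells (log2 fold change -0.29, SE 0.10, adjusted p = 0.0998, limma). Its 2 other probe sets were not called (-0.22 and -0.20), and the call was lost in 9 of the 12 fits without 1 array (adjusted p up to 0.257) and after median centring (0.282). Of the 2 probe sets of Atp5pb, the peripheral stalk subunit b, the dimmer one fell (log2 fold change -0.37, SE 0.10, adjusted p = 0.0197) and the brighter one did not pass (-0.21, adjusted p = 0.614). The catalytic subunits Atp5a1 and Atp5b had log2 fold changes of 0.01 (SE 0.08) and -0.02 (SE 0.07).

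CHX during P/I, compared with DMSO during P/I, lowered members of every complex but complex II, and raised none past the threshold. Of 114 probe sets, 17 (14.9%) were lower and 0 higher (limma, adjusted p under 0.1), with 24 lower and 0 higher at an unadjusted p under 0.05, and 11 lower and 0 higher in an unmoderated linear model. Over all tested probe sets, 12% were lower and 13.2% higher, and among those at log2 7 or more 22.5% and 23%. The share of members called lower, 14.9%, lay between those 2 background shares for lower calls, and 97 probe sets were not called. How it stood to the background depended on the arrays and on the model. Without all 4 arrays of replicate 1, 33 members (28.9%) were lower, against 15.2% of all tested. Without those of replicate 2 it was 2 members (1.75%), against 7.42%, and without those of replicate 3 it was 2, against 6.1%. Of single arrays, 26 members were lower without CHX P/I replicate 1, 6 without CHX P/I replicate 2, 8 without CHX P/I replicate 3, and 9 without DMSO P/I replicate 1 or 2. Of all 23410 tested, 2687, 2266 and 2333 were lower without CHX P/I replicate 1, 2 and 3 in that order. The number was 2851 without DMSO P/I replicate 1 and 2818 with all 12 arrays. Without CHX P/I replicate 1, or DMSO P/I replicate 1 or 3, 1 member was higher. With the replicate number as a block, 37 members (32.5%) were lower and 4 (3.51%) higher, against 16% and 16.5% of all tested. The labels do not say that these numbers mark a shared batch. The log2 fold change was negative for 92 of 114 members, with a median of -0.15, against 0.01 over all tested and -0.03 over those at log2 7 or more. These shifts are small: 5 members had an estimate beyond 0.5 on the log2 scale, and the 95% interval lay within 2-fold for 112 of 114. The arrays of the 2 groups did not overlap for 23 of the 114 members and for 30.1% of all tested. By complex, 4 of 41 probe sets of complex I subunits were lower, 1 of 7 of assembly factors, 0 of 4 of complex II, 2 of 11 of complex III, 5 of 21 of complex IV and 5 of 30 of the ATP synthase.

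**Figure D2:**
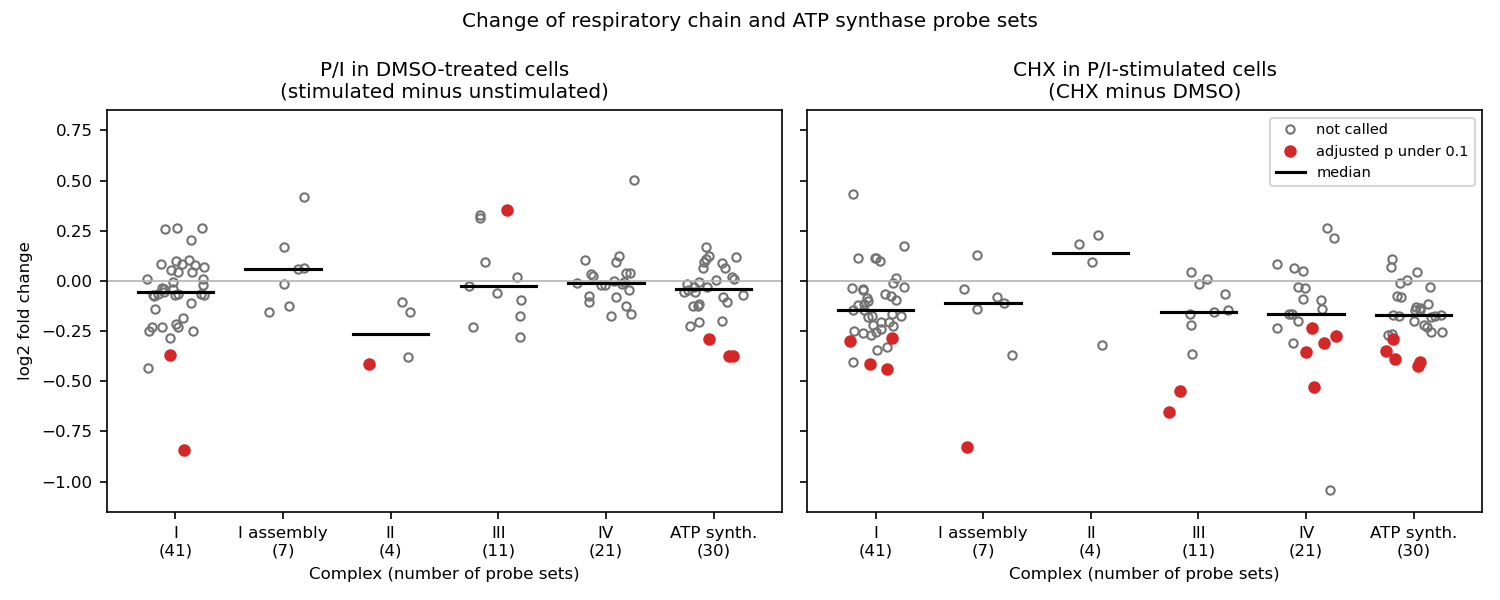
Log2 fold change of each of the 114 probe sets by complex, for P/I in DMSO-treated cells (left) and for CHX in P/I-stimulated cells (right), with filled red points at an adjusted p under 0.1 (limma), open grey points for the rest and black lines for medians. In the right panel 17 probe sets are called, all lower, and the medians of 5 of the 6 sets lie between -0.11 and -0.17, with complex II at 0.14.

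Uqcrq was the member with the smallest adjusted p. Its values were 8.21, 8.15 and 8.20 with CHX and P/I, against 8.70, 8.92 and 8.89 with DMSO and P/I. The CHX arrays were tightly grouped and lay wholly below the DMSO arrays, and the change was -0.65 on the log2 scale (SE 0.08, adjusted p = 9.87e-05, limma), 1.57-fold lower. It was the 1 member called in both comparisons, upward for P/I and downward for CHX, and these share the DMSO P/I arrays. Uqcr11, another small complex III subunit, had 1 of 2 probe sets lower (-0.55, adjusted p = 0.0741) and the other at -0.06. That call of Uqcr11 was lost without CHX P/I replicate 2 (-0.39, adjusted p = 0.279) or 3 (0.1), without DMSO P/I replicate 2 (0.257) or 3 (0.161), after quantile normalization (0.114) and in an unmoderated linear model (0.155). The estimate for the core subunit Uqcrc1 was 0.01 (SE 0.13), and that for the Rieske iron-sulfur protein Uqcrfs1 was -0.22 (SE 0.09, adjusted p = 0.125).

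Among the complex I genes, the largest decrease with CHX was that of Ndufaf4, an assembly factor that acts early in building the complex. Ndufaf4 had 7.79, 7.65 and 7.40 with CHX and P/I, against 8.83, 8.10 and 8.40 with DMSO and P/I. The groups were separate but wide, and the log2 fold change was -0.83 (SE 0.26, adjusted p = 0.0383, limma), 1.78-fold lower. The call was lost without CHX P/I replicate 3 (adjusted p = 0.139) or DMSO P/I replicate 1 (0.129). The X-linked Ndufa1, an accessory subunit needed for assembly of the membrane arm, had 8.78, 8.72 and 8.69 with CHX and P/I, against 8.94, 9.35 and 9.21 with DMSO and P/I (-0.44, SE 0.14, adjusted p = 0.0431). Ndufs8, an iron-sulfur subunit next to the coenzyme Q site, had 8.96, 8.53 and 8.97 with CHX and P/I, against 9.32, 9.30 and 9.07 with DMSO and P/I (-0.41, SE 0.14, adjusted p = 0.0572). Ndufb9, an accessory subunit of the membrane arm, had 9.05, 8.80 and 9.01 with CHX and P/I, against 9.43, 9.22 and 9.12 with DMSO and P/I (-0.30, SE 0.10, adjusted p = 0.0541). None of these groups overlapped, and the calls of Ndufa1, Ndufs8 and Ndufb9 depended on single arrays. That of Ndufa1 was lost without CHX P/I replicate 2 (adjusted p = 0.109) or 3 (0.122), without DMSO P/I replicate 2 (0.152) or 3 (0.121), and after quantile normalization (0.124). That of Ndufs8 was lost without CHX P/I replicate 2 (log2 fold change -0.27, adjusted p = 0.233) and without DMSO P/I replicate 1 (0.136) or 2 (0.148). That of Ndufb9 was lost without CHX P/I replicate 2 (0.214) or DMSO P/I replicate 1 (0.159). Ndufb11 was also called among the subunits of complex I, with 1 of 2 probe sets lower (-0.28, adjusted p = 0.0449) and the other at -0.03. That call of Ndufb11 was lost without CHX P/I replicate 1 (0.141) or 2 (0.139), without DMSO P/I replicate 3 (0.116) and with a variance trend (0.13).

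Complex IV contributed 5 called probe sets of 4 genes. Cox4i1, the widely expressed form of subunit 4, had 10.33, 10.37 and 10.38 with CHX and P/I, against 10.61, 10.85 and 10.69 with DMSO and P/I. The CHX arrays agreed to within 0.06 and lay below all DMSO arrays (log2 fold change -0.36, SE 0.09, adjusted p = 0.0129, limma). Cox7a2l is a relative of subunit 7a that joins complexes III and IV into supercomplexes. Its brighter probe set had 8.62, 8.73 and 8.64 with CHX and P/I, against 8.83, 9.00 and 9.10 with DMSO and P/I (-0.31, SE 0.10, adjusted p = 0.0447). Its other probe set had 8.26, 8.50 and 8.35 with CHX and P/I, against 8.84, 8.97 and 8.89 with DMSO and P/I (-0.53, SE 0.11, adjusted p = 0.00464). Both probe sets of Cox7a2l showed separate groups. The first call was lost without CHX P/I replicate 1 (adjusted p = 0.118) or 3 (0.123), without DMSO P/I replicate 2 (0.104) or 3 (0.167), and after quantile normalization (0.134), whereas the second and that of Cox4i1 held without any 1 array. Cox7a2, the common form of subunit 7a, changed by -0.24 on the log2 scale (SE 0.08, adjusted p = 0.0517). Its call was lost without CHX P/I replicate 2 (0.174) or 3 (0.169) and without DMSO P/I replicate 1 (0.131). Of the 2 probe sets of Cox6c, 1 was lower (-0.27, adjusted p = 0.0223) and 1 was not called (-0.16, adjusted p = 0.266). With a variance trend in limma the further calls of Ndufb9 (adjusted p = 0.125), Cox7a2 (0.222) and the brighter probe set of Cox7a2l (0.117) were lost, and in an unmoderated linear model those of Ndufaf4 (0.106) and Ndufs8 (0.11).

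In the ATP synthase, 5 of the 6 probe sets of Atp5l were lower with CHX during P/I, and no other gene was called. Atp5l encodes subunit g of the membrane part, where the enzyme forms dimers that shape the cristae. Its brightest probe set had 9.24, 8.89 and 9.09 with CHX and P/I, against 9.58, 9.50 and 9.35 with DMSO and P/I. The groups did not overlap, the change was -0.41 on the log2 scale (SE 0.12, adjusted p = 0.0299, limma), and the call was lost without CHX P/I replicate 2 (log2 fold change -0.32, adjusted p = 0.13). The 4 other called probe sets lay between -0.29 and -0.42, and the remaining one was at -0.22 (adjusted p = 0.205). Of these 4 calls, each was lost without CHX P/I replicate 2 or 3 or DMSO P/I replicate 1 or 2 (adjusted p of 0.102 to 0.273), 3 were lost in the unmoderated linear model and 2 with a variance trend. The weakest (-0.29) was also lost without CHX unstimulated replicate 3 or DMSO unstimulated replicate 2 (adjusted p = 0.105 each). All 6 carry the same symbol, so they are not 6 independent results, but each is counted in the totals.

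Complex II had no called probe set with CHX during P/I. Sdha had 10.88, 10.80 and 10.69 with CHX and P/I, against 10.81, 10.53 and 10.35 with DMSO and P/I, and the groups overlapped (log2 fold change 0.23, SE 0.12, adjusted p = 0.251). Ndufv3, the member with the largest decrease with P/I, had 8.77, 9.41 and 9.27 with CHX and P/I, against 8.49, 8.82 and 8.85 with DMSO and P/I (0.43, SE 0.21, adjusted p = 0.192). None of the 6 probe sets that fell with P/I were called for CHX, 16 were lower with CHX and not called with P/I, and 91 were called in neither comparison. Cox6a2, a form of subunit 6a best known from heart and skeletal muscle, had the estimate farthest from 0 of all members for CHX during P/I and was not called. It had 6.79, 8.29 and 8.07 with CHX and P/I, against 7.95, 9.12 and 9.21 with DMSO and P/I. Replicate 1 was more than 1 log2 unit below the others in all 4 groups, and the log2 fold change of -1.04 had a 95% interval from -2.34 to 0.25 (adjusted p = 0.291, limma). Whether these genes were called depended on the model. With the replicate number as a block in limma, Cox6a2 (adjusted p = 8.6e-05), Ndufv3 (0.00239), Sdhb (0.011) and Sdha (0.0652) were called for CHX during P/I.

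**Figure D3:**
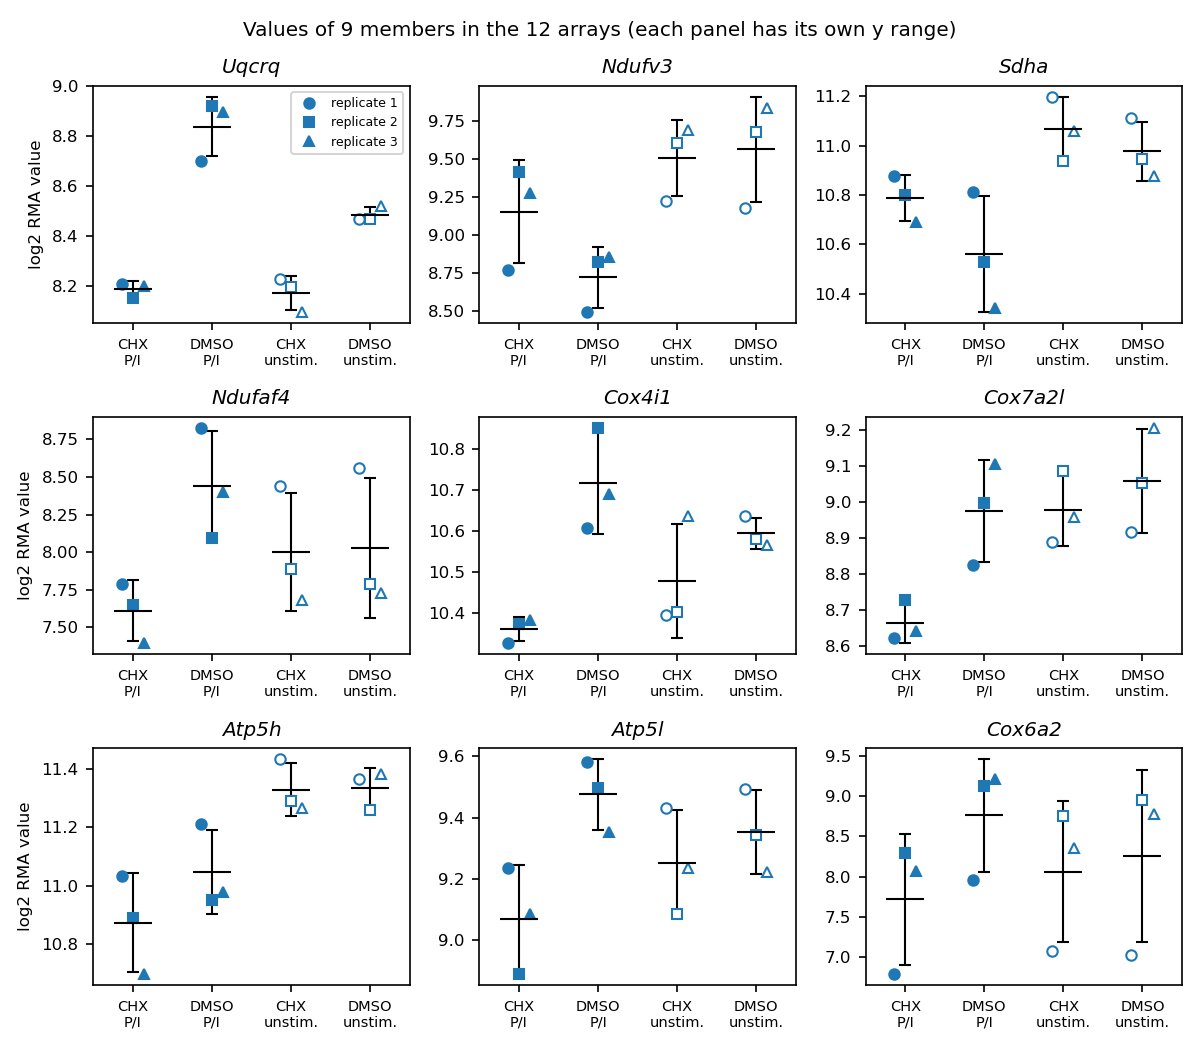
Log2 RMA values of 9 members in the 12 arrays, in the order CHX with P/I, DMSO with P/I, CHX unstimulated and DMSO unstimulated, with circles, squares and triangles for replicates 1, 2 and 3, filled for P/I, and with the group mean and SD (n = 3) in black. Each panel has its own y range. For Uqcrq the DMSO P/I arrays (8.70 to 8.92) stand above all others and both CHX groups lie between 8.09 and 8.23, and for Cox6a2 replicate 1 is the lowest array in every group.

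Promoter sequences were compared as a feature that the choice of members did not use. The RefSeq table (build GRCm38.p6, 250 bases before to 50 after each start) held 78 windows for 73 of the 89 genes. These windows were searched on both strands for 3 short motifs. They were GCGCATGCG, the core of the site of NRF1 (a factor known for its role in expression of respiratory genes), CCGGAAG, a core of sites of ETS factors such as GABP, and AAGATGGCG, a form of the YY1 site that often lies at start sites. The NRF1 letters were in 12.8% of the members' windows, against 1.75% of all 32851 windows, the ETS letters in 23.1%, against 8.86%, and the YY1 letters in 8.97%, against 1.4%. At least 1 of the 3 was in 38.5%, against 11.4%. The members' windows were also richer in G and C (median 58%, against 52.7%) and in CpG (median 19.5 per window, against 7). A match is a description of the letters and not a measured site. The windows of 3 members that fell with CHX and hold a match are shown, with the matches in capitals and each read along its own gene. Ndufaf4 (chr4:24897833-24898132, plus strand) has the NRF1 letters on both strands of 1 palindrome, first matched at position -113 from the start. Ndufs8 (chr19:3912725-3913024, minus strand) has the ETS letters on the opposite strand, at position 16 after the start. Atp5l (chr9:44920693-44920992, minus strand) has the NRF1 letters at position -241 from the start and the ETS letters at -212 and 25, all on the opposite strand.
Ndufaf4: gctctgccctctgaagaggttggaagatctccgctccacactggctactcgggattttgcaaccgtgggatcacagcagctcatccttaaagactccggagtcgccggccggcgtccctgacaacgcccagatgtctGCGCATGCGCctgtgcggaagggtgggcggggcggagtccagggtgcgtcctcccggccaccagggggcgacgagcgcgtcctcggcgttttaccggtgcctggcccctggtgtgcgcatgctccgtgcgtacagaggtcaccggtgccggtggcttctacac
Ndufs8: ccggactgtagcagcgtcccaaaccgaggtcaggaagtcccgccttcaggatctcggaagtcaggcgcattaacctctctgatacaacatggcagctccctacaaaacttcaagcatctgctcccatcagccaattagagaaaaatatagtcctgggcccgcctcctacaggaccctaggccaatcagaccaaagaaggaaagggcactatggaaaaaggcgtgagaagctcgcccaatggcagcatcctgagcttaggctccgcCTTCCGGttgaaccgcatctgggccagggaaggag
Atp5l: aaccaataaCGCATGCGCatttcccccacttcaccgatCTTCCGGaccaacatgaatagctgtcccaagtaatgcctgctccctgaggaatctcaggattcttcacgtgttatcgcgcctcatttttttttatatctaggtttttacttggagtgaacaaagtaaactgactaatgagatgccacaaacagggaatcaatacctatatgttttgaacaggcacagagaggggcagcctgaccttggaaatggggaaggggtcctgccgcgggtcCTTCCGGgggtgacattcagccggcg

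CHX alone, in unstimulated cells, gave no called member. Of the 114 probe sets, 0 were higher and 0 lower (limma, adjusted p under 0.1), with 0 higher and 2 lower at an unadjusted p under 0.05, and over all tested probe sets 0.0299% were higher and 0% lower. The median log2 fold change was -0.06, against -0.02 over all tested and 0.07 over those at log2 7 or more. The estimate was negative for 81 of 114 members and positive for 6215 of the 8681 tested at log2 7 or more. The members' 95% interval lay within 2-fold for 113 of 114 probe sets and within 1.41-fold for 84. Uqcrq had the lowest estimate, with 8.23, 8.19 and 8.09 in CHX-treated unstimulated cells and 8.47, 8.47 and 8.52 in DMSO-treated unstimulated cells. The groups did not overlap, but the log2 fold change of -0.31 (SE 0.08) did not pass the test over all probe sets (adjusted p = 0.401, limma). Such separation was seen for 5 of the 114 members and for 16.2% of all tested.

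P/I in CHX-treated cells, compared with CHX-treated unstimulated cells, raised 2 members and lowered 7, while 10.2% of all tested probe sets were higher and 11.6% lower. After quantile normalization 2 were higher and 20 lower, while 2470 and 2980 of all 23410 tested were. Without CHX P/I replicate 1, 16 were lower (2539 of all tested), and without DMSO P/I replicate 1, 17 were (3200 of all tested). The last array is in neither group and enters through the shared estimate of the spread. With the replicate number as a block, 2 members (1.75%) were higher and 37 (32.5%) lower, against 13.5% and 16.9% of all tested. The median log2 fold change was -0.15, against 0.02 over all tested and -0.09 over those at log2 7 or more. Of the tested probe sets at log2 7 or more, 16.1% were higher and 22.5% lower. Atp5h carried the largest decreases, called at all 3 of its probe sets. The brightest had 11.04, 10.89 and 10.70 with CHX and P/I, against 11.43, 11.29 and 11.27 in CHX-treated unstimulated cells. The groups did not overlap (log2 fold change -0.45, SE 0.10, adjusted p = 0.00922, limma), and the others had log2 fold changes of -0.54 and -0.53. Cox7a2l was lower at both probe sets (-0.31 and -0.49). Also lower were Ndufa3 (-0.33 on the log2 scale, SE 0.09, adjusted p = 0.0203) and Atp5c1 (-0.34, SE 0.12, adjusted p = 0.0645). Ndufa3 had 9.44, 9.25 and 9.23 with CHX and P/I, against 9.72, 9.66 and 9.54 in CHX-treated unstimulated cells, again without overlap. Ndufa3, Atp5c1 and Atp5h were thus called lower with P/I in DMSO and with P/I in CHX. These 2 comparisons share no arrays but share the estimate of the spread over all 12, so their calls are not independent. That of Atp5h with P/I in DMSO was lost without CHX P/I replicate 2 (adjusted p = 0.13) or any CHX unstimulated array (0.105 to 0.132, limma). The members that rose were dim. Ndufa7, an accessory subunit of complex I, had 6.82, 6.90 and 7.09 with CHX and P/I, against 6.53, 6.73 and 6.56 in CHX-treated unstimulated cells (0.33, SE 0.10, adjusted p = 0.0376). Cox7a1, the muscle form of subunit 7a, had 5.81, 6.08 and 5.95 with CHX and P/I, against 5.51, 5.65 and 5.65 in CHX-treated unstimulated cells (0.35, SE 0.13, adjusted p = 0.0894). Both were separate from their unstimulated arrays. In this comparison the 2 groups did not overlap for 26 of the 114 members and for 35.8% of all tested. The call of Atp5c1 was lost without CHX P/I replicate 2 (adjusted p = 0.118) or 3 (0.221) or CHX unstimulated replicate 1 (0.21), 2 (0.105) or 3 (0.101). That of the brighter probe set of Cox7a2l was lost without CHX P/I replicate 1 (0.126) or 3 (0.14) or CHX unstimulated replicate 2 (0.178) or 3 (0.107). That of Ndufa7 was lost without CHX P/I replicate 3 (0.163) or CHX unstimulated replicate 1 (0.131) or 3 (0.117). That of Cox7a1 was lost without CHX P/I replicate 2 (0.273) or 3 (0.196), any CHX unstimulated array (0.145 to 0.239) or DMSO unstimulated replicate 3 (0.117).

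The interaction asks whether the P/I effect in CHX-treated cells differed from that in DMSO-treated cells. It was called for 1 member above 0 and 1 below 0, against 6.04% and 7.62% of all tested probe sets. Among those at log2 7 or more the shares were 9.4% and 14.1%. The median was -0.12 for the members, 0.05 over all tested and -0.09 over those at log2 7 or more. After median centring 0 members were above and 2 below 0, and after quantile normalization 2 were above and 0 below. For Uqcrq the P/I effect was 0.01 in CHX-treated cells and 0.35 in DMSO-treated cells, a difference of -0.34 (SE 0.11, adjusted p = 0.08, limma). For Cox7a1 the P/I effect was 0.35 in CHX-treated cells and -0.18 in DMSO-treated cells, a difference of 0.52 (SE 0.18, adjusted p = 0.0978). Cox7a1 lay below log2 6.1 in every array. The interaction estimates were less precise than the others, with a median SE of 0.182, and the 95% interval lay within 1.41-fold for 43 of 114.

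Several subunits of complex IV and the c subunit of the ATP synthase exist as forms from separate genes, of which one is often widespread and another kept for heart, skeletal muscle, lung or testis. The widespread forms were measured at a mean over the 12 arrays of log2 10.54 for Cox4i1, 9.77 for Cox6a1, 10.53 for Cox6b1, 8.26 for Cox7a2, 9.84 for the brighter probe set of Cox7b and 10.11 for Cox8a. The restricted forms read 6.10 for Cox4i2, 5.31 for Cox6b2, 5.77 for Cox7a1, 4.52 for Cox7b2, 5.05 for Cox8b and 5.56 for Cox8c, with Cox6a2 at 8.20 and variable. Levels of different probe sets depend on their probes, so these are given for each gene by itself. Of these genes, Cox4i1 and Cox7a2 were lower with CHX during P/I, and none of the restricted forms were called in that comparison or with P/I in DMSO. With the replicate number as a block in limma, Cox6a2 (-1.04, adjusted p = 8.6e-05), Cox6b1 (-0.23, 0.0766) and Cox7a1 (0.26, 0.0249) were also called for CHX during P/I. Cox6a2 was then called for P/I in DMSO as well (0.50, adjusted p = 0.0138), and the other restricted forms were called in neither comparison. The genes Atp5g1, Atp5g2 and Atp5g3 encode the same mature c subunit, the ring that protons turn, behind different import signals. Their probe sets averaged log2 9.79 and 10.48 (Atp5g1), 11.40 to 12.16 (Atp5g2) and 11.76 (Atp5g3). None were called in any of the 5 comparisons, with log2 fold changes of -0.06 to 0.06 for P/I in DMSO and of -0.18 to -0.08 for CHX during P/I.

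Genes that work beside the chain included larger changes. Over all tested probe sets, 9.05% were higher and 8.42% lower with P/I in DMSO, and 13.2% and 12% with CHX during P/I. Among those at log2 7 or more the shares were 16.9% and 15%, and 23% and 22.5%. The counts of this list and of the next ones stand beside these shares, and no list was tested as a set. Of the 10 probe sets (8 genes) for cytochrome c and partners, 1 was higher and 1 lower with P/I in DMSO, and 2 were higher and 1 lower with CHX during P/I. Hccs, which attaches heme to cytochrome c, averaged log2 11.05 ± 0.10 with CHX and P/I, 10.33 ± 0.07 with DMSO and P/I and 9.69 ± 0.17 in DMSO-treated unstimulated cells (SD, n = 3 each). It rose by 0.64 with P/I (adjusted p = 0.00122) and by 0.72 with CHX during P/I (adjusted p = 0.000337, limma). Etfdh, which feeds electrons from fatty acid oxidation into coenzyme Q, fell with P/I (-0.76, adjusted p = 0.00972) and was higher with CHX during P/I (0.60, adjusted p = 0.024). Cycs, cytochrome c itself, had no call at its 2 bright probe sets, and a dim one averaging log2 4.82 was lower with CHX (-0.40, adjusted p = 0.0935).

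Of 17 probe sets for assembly factors of complex IV, 2 were higher and 2 lower with P/I, and 1 was higher and 1 lower with CHX during P/I. Cox20, a chaperone of the mitochondrially made subunit 2, averaged 9.00 ± 0.08 with CHX and P/I, 7.97 ± 0.11 with DMSO and P/I and 8.45 ± 0.08 in DMSO-treated unstimulated cells (SD, n = 3 each). It fell with P/I (-0.48, adjusted p = 0.00377) and was higher with CHX during P/I (1.03, adjusted p = 1.2e-05, limma). Cox10, which makes heme A, rose with P/I (0.60, adjusted p = 0.00769), and Coa3 fell (-0.57, adjusted p = 0.0103). Coa5 was lower with CHX during P/I (-0.57, adjusted p = 0.0843). Of 22 probe sets (19 genes) for other assembly factors, 1 was higher and 3 lower with P/I, and 1 was raised by CHX during P/I. Ttc19, which works on complex III, rose (0.93, adjusted p = 4.26e-05), whereas Ecsit of complex I (-0.79, adjusted p = 0.0223) and Uqcc3 of complex III (-0.42, adjusted p = 0.0201) fell. Ecsit was higher with CHX during P/I (0.66, adjusted p = 0.0404).

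The TCA cycle and pyruvate dehydrogenase list (17 probe sets) had 2 members lower and 0 higher with P/I, the mitochondrial isocitrate dehydrogenase Idh2 (-0.41, adjusted p = 0.0226) and the pyruvate dehydrogenase subunit Pdha1 (-0.24, adjusted p = 0.0538). Ogdh, the first enzyme of the 2-oxoglutarate dehydrogenase complex, was the 1 member called with CHX during P/I (0.62, adjusted p = 0.0438, limma). Of 11 probe sets for coenzyme Q synthesis, 1 rose and 2 fell with P/I, and 4 were higher and 0 lower with CHX during P/I. Coq10b, a coenzyme Q binding protein, rose with P/I (0.89, adjusted p = 0.000688) and was higher again with CHX (0.92, adjusted p = 0.000351). Coq9 fell with P/I (-0.60, adjusted p = 0.00161) and was higher with CHX (0.57, adjusted p = 0.00146), as was the brighter probe set of Coq10a (-0.32, adjusted p = 0.0135, and 0.46, adjusted p = 0.000945). The 2 comparisons share the DMSO P/I arrays.

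Of 14 probe sets (12 genes) for regulators of mitochondrial biogenesis, 2 were higher and 1 lower with P/I, and 1 was higher and 5 lower with CHX during P/I. Gabpb1 and Gabpa, the subunits of the ETS factor GABP, rose by 1.31 (adjusted p = 2.32e-06) and 0.68 (adjusted p = 0.00126) with P/I, and Gabpb1 was higher again with CHX (0.44, adjusted p = 0.00416, limma). The coactivator Ppargc1b fell with P/I (-0.45, adjusted p = 0.0911). Tfb2m, a factor for transcription of mitochondrial DNA, averaged 7.64 ± 0.17 with CHX and P/I and 8.96 ± 0.42 with DMSO and P/I (SD, n = 3 each), a log2 fold change of -1.315 (adjusted p = 0.00182). The nuclear receptor Esrra was also lower with CHX during P/I (-0.41, adjusted p = 0.0218).

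Set beside other large protein assemblies, the respiratory chain and ATP synthase had 14.9% of their probe sets lower with CHX during P/I, the mitochondrial ribosomal proteins 12 of 85 (14.1%), the proteasome 8 of 46 (17.4%) and the cytosolic ribosomal proteins 131 of 215 (60.9%). These lists hold 89, 77, 40 and 59 genes in that order, so probe sets sharing a symbol weigh most in the last. The median log2 fold changes were -0.15, -0.18, -0.20 and -0.25 in that order. With P/I in DMSO these medians were -0.04 for the respiratory chain and ATP synthase, 0.08 for the mitochondrial ribosomal proteins, 0.18 for the proteasome and 0.06 for the cytosolic ribosomal proteins. The differences between these lists were not tested.

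**Figure D4:**
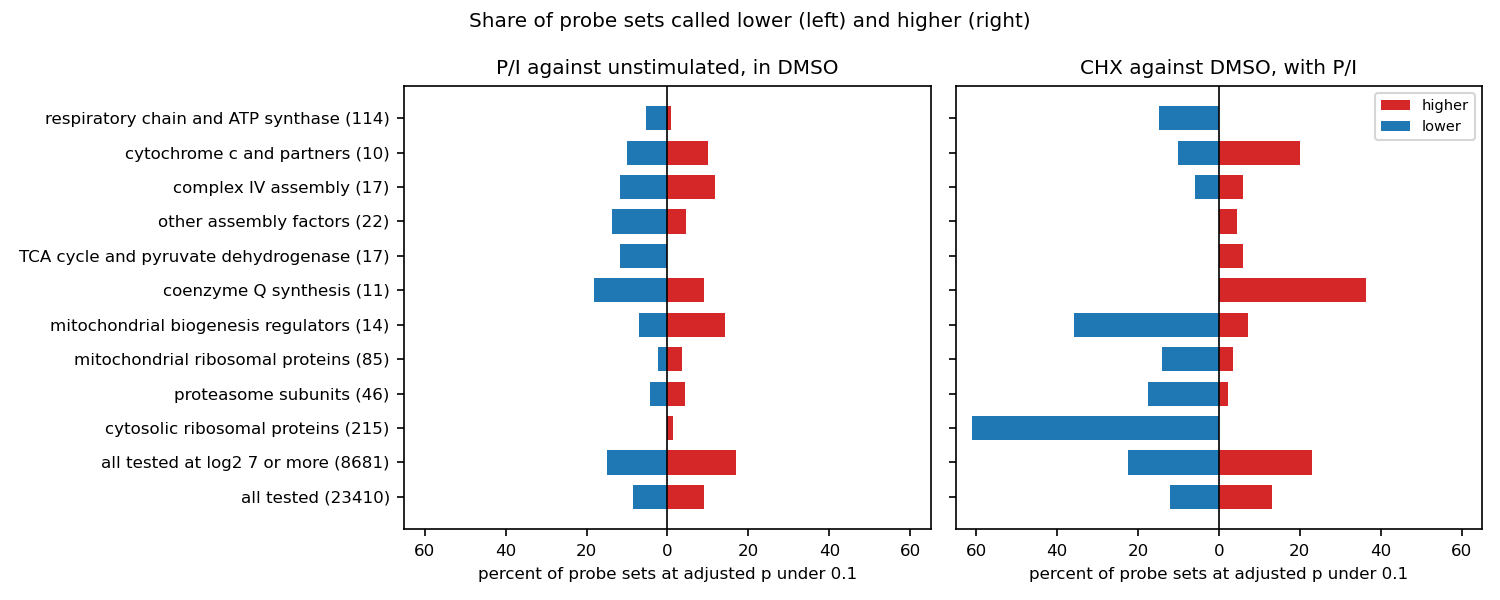
Percent of probe sets called lower (bars to the left) and higher (bars to the right) at an adjusted p under 0.1 (limma), for P/I in DMSO-treated cells (left panel) and for CHX in P/I-stimulated cells (right panel), in each gene list and in all tested probe sets, with the number of probe sets in parentheses. For the respiratory chain and ATP synthase the bars are 5.26% lower and 0.877% higher with P/I, and 14.9% lower and 0% higher with CHX.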

How the data were processed

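RNA of 12 EL-4 samples was hybridised to Affymetrix Mouse Gene 1.0ST arrays, 3 in each of 4 groups. The deposited log2 values were made by the authors with Partek: RMA with a background step that takes probe sequence into account, then quantiles set equal across arrays. The study's methods name a genome build for its ChIP arrays and start sites; that behind the expression values and the tool versions are not given in the sources used here. Precision is limited by how many arrays there were.

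Of 35399 probe sets, 21789 had 1 symbol in the platform annotation, 1621 several and 11989 none. The 23410 with a symbol were tested with limma 3.58.1 (R 4.3.3, lmFit and eBayes, a mean per group, 12 arrays, residual df 8), with Benjamini-Hochberg adjustment over all of them and calls at an adjusted p under 0.1, the study's FDR. Each probe set is a member, and the brightest carries the gene's name. The paper states that duplicate genes on this array often stood for pseudogenes elsewhere in the genome. Probe sets that share a symbol may therefore read different loci, which was not checked here. All 114 members' Entrez IDs matched RefSeq. The script was tested on simulated data. The members and gene lists were chosen with earlier results of these data known.

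Named were up to 8 called members per direction and comparison with the largest change, complex II, the isoform families, and up to 3 called genes per other list by p for P/I in DMSO and CHX during P/I. Atp5pb, Uqcr11, Ndufb11, Cox6c, Uqcrc1, Uqcrfs1, Atp5a1, Atp5b, Cycs and the replicate arrays described were chosen after their values were seen. Alternatives were median centring, quantile normalization, a mean of at least log2 5, all probe sets, a variance trend, an unmoderated linear model, a threshold of 0.05, a replicate block and leaving out arrays. Nothing was left out of the deposited table's columns.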

Additional observations from a re-analysis of the deposited data

Results flagged for a closer look

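In 2 members the P/I effect differed between CHX-treated and DMSO-treated cells by the test of the difference itself (limma interaction, adjusted p under 0.1). For Uqcrq the P/I effect was 0.01 in CHX-treated cells and 0.35 in DMSO-treated cells, a difference of -0.34 on the log2 scale (SE 0.11, adjusted p = 0.08). The 3 arrays of CHX-treated P/I-stimulated cells (8.15 to 8.21) lay within the range of the CHX-treated unstimulated cells (8.09 to 8.23), while those of DMSO-treated P/I-stimulated cells (8.70 to 8.92) lay above the DMSO-treated unstimulated cells (8.47 to 8.52). The interaction was lost in 10 of the 12 fits without 1 array (adjusted p up to 0.18, without CHX unstimulated replicate 1), with a variance trend (0.274) and after quantile normalization (-0.22, adjusted p = 0.517).

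For Cox7a1 the P/I effect was 0.35 in CHX-treated cells and -0.18 in DMSO-treated cells, a difference of 0.52 (SE 0.18, adjusted p = 0.0978, limma). Its values were 5.81, 6.08 and 5.95 with CHX and P/I and 5.46, 5.78 and 5.82 with DMSO and P/I, and 5.51, 5.65 and 5.65 in CHX-treated unstimulated and 5.64, 6.05 and 5.90 in DMSO-treated unstimulated cells. The call was lost in 8 of the 12 fits without 1 array (adjusted p up to 0.225, without DMSO unstimulated replicate 2) and after median centring (0.42, adjusted p = 0.106). Over all tested probe sets 6.04% were called for an interaction above 0 and 7.62% for one below 0.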

How the results depend on the processing

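No call of a named member turned direction under any alternative, but calls near the threshold were gained and lost. For P/I in DMSO, 1 member was higher and 6 lower as reported, 2 and 3 once arrays were centred on their medians, and 0 and 15 after quantile normalization. Of all 23410 probe sets, 2162 were higher and 1453 lower after centring, and 2142 and 2435 after quantile normalization. For CHX during P/I, 17 were lower as reported, 11 with a variance trend, 11 in an unmoderated linear model and 10 at an adjusted p under 0.05. For P/I in CHX, 2 were higher as reported and 1 with all probe sets of the table, 1 in the unmoderated linear model and 1 at 0.05, and 7 were lower as reported and 20 after quantile normalization. Of all 23410 probe sets, 2719 were lower as reported and 2980 after quantile normalization. For the interaction, 1 was above 0 as reported, 0 after median centring, 2 after quantile normalization and 0 with all probe sets, the unmoderated linear model or 0.05, and 1 was below 0 as reported, 2 after median centring and 0 after quantile normalization, with a variance trend or at 0.05. Why these counts moved was not tested. After median centring the members' median change with P/I in DMSO was 0.01 in place of -0.04.

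Leaving out arrays of 1 replicate number or 1 array gave 0 to 4 members higher and 0 to 13 lower for P/I in DMSO, 0 to 3 higher and 2 to 33 lower for CHX during P/I, 0 higher and 0 to 1 lower for CHX in unstimulated cells, 0 to 2 higher and 0 to 28 lower for P/I in CHX, and 0 to 2 above and 0 to 4 below 0 for the interaction. Without all arrays of replicate 1 the count of members lower with CHX during P/I was 33 (28.9%, against 15.2% of all tested). Without all those of replicate 2 or of replicate 3 it was 2 (1.75%, against 7.42% and 6.1%). Without replicate 1, the 13 lower with P/I in DMSO are 11.4%, against 12.6% of all tested. The 28 lower with P/I in CHX are then 24.6%, against 15.3%, and the 4 below 0 for the interaction 3.51%, against 10.3%.

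With the replicate number as a block, 6 members were higher and 16 lower with P/I in DMSO, 4 and 37 with CHX during P/I, 37 lower with P/I in CHX, and 3 above and 8 below 0 for the interaction. For CHX during P/I these 37 are 32.5% of the members, against 16% of all probe sets tested, and for P/I in CHX 32.5%, against 16.9%. For P/I in DMSO the 16 lower are 14%, against 12.9%. The 6 higher with P/I in DMSO are 5.26%, against 13%, and the 4 higher with CHX during P/I are 3.51%, against 16.5%. For the interaction the 3 above and 8 below 0 are 2.63% and 7.02%, against 10% and 12.2% of all tested. Every call reported was kept. Members not called as reported were called with the block for CHX during P/I, among them Cox6a2 (-1.04, adjusted p = 8.6e-05), Ndufv3 (0.43, adjusted p = 0.00239), Sdhb (-0.32, adjusted p = 0.011) and Sdha (0.23, adjusted p = 0.0652). Same-numbered arrays deviated together at 0.0644 to 0.75 in 18 pairs, over 0.1 in 17, and all 12 arrays were closest to their own number. The labels do not say that the numbers mark a shared batch, so this is a hint from the data, not the design.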
